A study of Mus musculus with 8 samples.

Results

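The 42 genes described here are cell proliferation genes, chosen by their known roles in the cell division cycle and read on 8 one-colour Agilent mouse arrays of whole skin. They make up 42 of the 21095 genes that could be named on the arrays through the accession of a probe. The skin came from female FVB/N mice, either CD109-/-, which lack the membrane protein CD109, or CD109+/+, their wild-type counterpart. The 4 groups, with 2 arrays each, were CD109-/- skin treated with DMBA, CD109+/+ skin treated with DMBA, untreated CD109-/- skin and untreated CD109+/+ skin. DMBA, 7,12-dimethylbenz(a)anthracene, is a carcinogen that forms adducts with DNA, and the sample descriptions name acetone, its solvent, for the skin whose titles read untreated. Tissue was taken at 24 h. The labels give no age for the mice of the arrays, and the methods give one for the tumour experiments only. The sources do not say whether each array held the RNA of a separate mouse, so a p-value here reflects no more than the spread between samples, which may be technical.

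A cell that divides passes from the G1 phase through DNA replication in S phase and a second gap, G2, to mitosis. Cyclins and the kinases they activate drive these steps, MCM proteins license the origins at which replication starts, and mitotic kinases, kinesins and the spindle checkpoint separate the chromosomes. Most of these genes are transcribed mainly in dividing cells. In skin, such cells lie mainly in the basal layer of the epidermis and, while a follicle is growing hair, in the hair matrix. Fewer dividing cells and less RNA of these genes per cell cannot be told apart in whole skin.

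Many genes that peak in G2 and mitosis share short promoter elements, CCAAT boxes and the cell cycle genes homology region, whose core is TTTGAA or TTCGAA, while E2F factors bind sites such as TTCCCGC and TTGGCGC in genes of the G1/S transition. The windows listed as promoters below, from RefSeq (GRCm38.p6), span 300 bases each, most of them upstream of a start of transcription. Capitals mark these motifs on either strand. Ccnb2, Plk1 and Bub1 are shown because they were low and high on the same arrays, and E2f1 because its signal did not follow the other genes. They lie at chr9:70421505-70421804 (minus strand), chr7:122159185-122159484 (plus strand), chr2:127831810-127832109 (minus strand) and chr2:154569377-154569676 (minus strand).
Ccnb2: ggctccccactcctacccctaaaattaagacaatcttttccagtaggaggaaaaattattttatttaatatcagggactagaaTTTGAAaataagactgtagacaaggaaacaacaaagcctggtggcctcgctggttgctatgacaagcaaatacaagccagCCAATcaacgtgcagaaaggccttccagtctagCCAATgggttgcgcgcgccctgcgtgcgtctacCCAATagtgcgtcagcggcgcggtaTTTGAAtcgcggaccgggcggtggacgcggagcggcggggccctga
Plk1: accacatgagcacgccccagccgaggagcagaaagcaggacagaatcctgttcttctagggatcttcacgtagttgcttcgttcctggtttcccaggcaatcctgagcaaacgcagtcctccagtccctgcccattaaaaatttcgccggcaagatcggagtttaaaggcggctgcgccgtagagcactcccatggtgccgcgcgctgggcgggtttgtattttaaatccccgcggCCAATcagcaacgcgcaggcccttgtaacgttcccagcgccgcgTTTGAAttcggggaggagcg
Bub1: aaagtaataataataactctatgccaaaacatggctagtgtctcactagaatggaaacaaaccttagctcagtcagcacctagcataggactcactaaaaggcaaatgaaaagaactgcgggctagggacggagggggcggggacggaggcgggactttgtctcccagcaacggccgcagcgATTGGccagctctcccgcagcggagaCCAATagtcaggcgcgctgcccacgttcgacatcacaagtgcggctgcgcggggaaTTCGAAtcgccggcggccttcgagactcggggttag
E2f1: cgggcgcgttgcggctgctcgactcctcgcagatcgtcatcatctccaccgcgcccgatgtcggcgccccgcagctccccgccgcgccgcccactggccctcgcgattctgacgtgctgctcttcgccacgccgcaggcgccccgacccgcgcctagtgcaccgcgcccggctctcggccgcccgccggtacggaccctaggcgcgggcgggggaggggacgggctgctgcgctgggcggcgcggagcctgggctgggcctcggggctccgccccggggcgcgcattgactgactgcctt
The Ccnb2 window held 3 CCAAT boxes, each starting 33 bases after the last, and 2 TTTGAA cores. Plk1 held 1 CCAAT box and 1 core, and Bub1 held 2 CCAAT boxes and 1 core. The E2f1 window held none of the letters searched. From near its first base this window reads as protein-coding sequence of E2f1, so it lies downstream of the start of that transcript. It therefore does not show that E2f1 lacks such sites. Of the 42 genes, 33 were matched to the promoter table, E2f1 among them by this window. A CCAAT box was present in 26 of these 33 (78.8%), against 41.1% of all 27025 genes in the table. A TTTGAA or TTCGAA core was present in 17 (51.5%), against 21.7% of all genes, and TTCCCGC or TTGGCGC in 9 (27.3%), against 7.79%. These matches describe the letters of the windows and are no evidence of binding. Whether they go with the signal was not tested. Birc5 and Mad2l1 held none of these motifs but correlated with the mean of the other genes (r = 0.95 and 0.97). Ttk and Cenpf held 2 CCAAT boxes and 1 core each but had r = 0.47 and 0.53.

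Throughout, the log2 signal is the log2 of a deposited intensity minus that of the 75th percentile on the same array. Each gene was read by its brightest tested probe, and 41 of the 42 genes were tested. The exception was Ccne2, cyclin E2, whose probe was well above background on 0 of the 8 arrays. Of the 41 genes, 40 were well above background on all arrays and Cenpf, which encodes a kinetochore protein, on 7 of 8. Groups were compared with limma over all 36921 tested probes, where an adjusted p (Benjamini-Hochberg) under 0.05 counted as passing. The 4 DMBA arrays lay in 1 row of the slide and the 4 untreated arrays in the other, so that effects of treatment and of slide row cannot be told apart. Arrays labelled CD109+/+ lay in columns 1 and 2 and those labelled CD109-/- in columns 3 and 4. Effects of the labelled genotype and of slide column cannot be told apart either.

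The signal of Cd109, the deleted gene, went against the label on 2 of the 8 arrays. After DMBA it was -7.85 and -7.52 in CD109-/- skin, against 1.09 and 1.67 in CD109+/+ skin. In untreated skin replicates 1 and 2 labelled CD109-/- had 1.89 and -7.90, against 2.29 and -6.28 for replicates 1 and 2 labelled CD109+/+. After DMBA Cd109 was therefore at least 120-fold lower in CD109-/- skin (adjusted p = 0.201, limma), computed against the dimmest signal well above background. The 4 arrays with negative values are called Cd109-low and the other 4 Cd109-high. It is not known here whether the probe lies in the part that was deleted. Each comparison was made with the deposited labels and again with the array labelled untreated CD109-/- replicate 1 and the array labelled untreated CD109+/+ replicate 2 exchanged. Because the exchange rests on the values of these same arrays, p-values computed with it describe how the arrays split by Cd109 signal and give no separate evidence on genotype.

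The proliferation genes were lowest on the 2 untreated arrays with a high Cd109 signal, whatever the genotype on the label. Their mean log2 signal was 1.51 and 1.43 in DMBA-treated CD109-/- skin, 1.14 and 1.22 in DMBA-treated CD109+/+ skin, 0.11 and 1.56 for replicates 1 and 2 labelled untreated CD109-/-, and 0.29 and 1.45 for replicates 1 and 2 labelled untreated CD109+/+. In 38 of the 41 genes, both untreated arrays with a high Cd109 signal lay below the other 6 arrays. This was the case for 11.5% of all tested probes, and the reverse for 0 of the 41 genes and 11.6% of all probes. The exceptions were E2f1, Ttk and Cenpf. The 4 arrays with a low Cd109 signal stood at the top of the range, and the 2 arrays of DMBA-treated CD109+/+ skin stood between them and the 2 lowest. The plot of all genes by array shows these 3 levels.

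**Figure D1:**
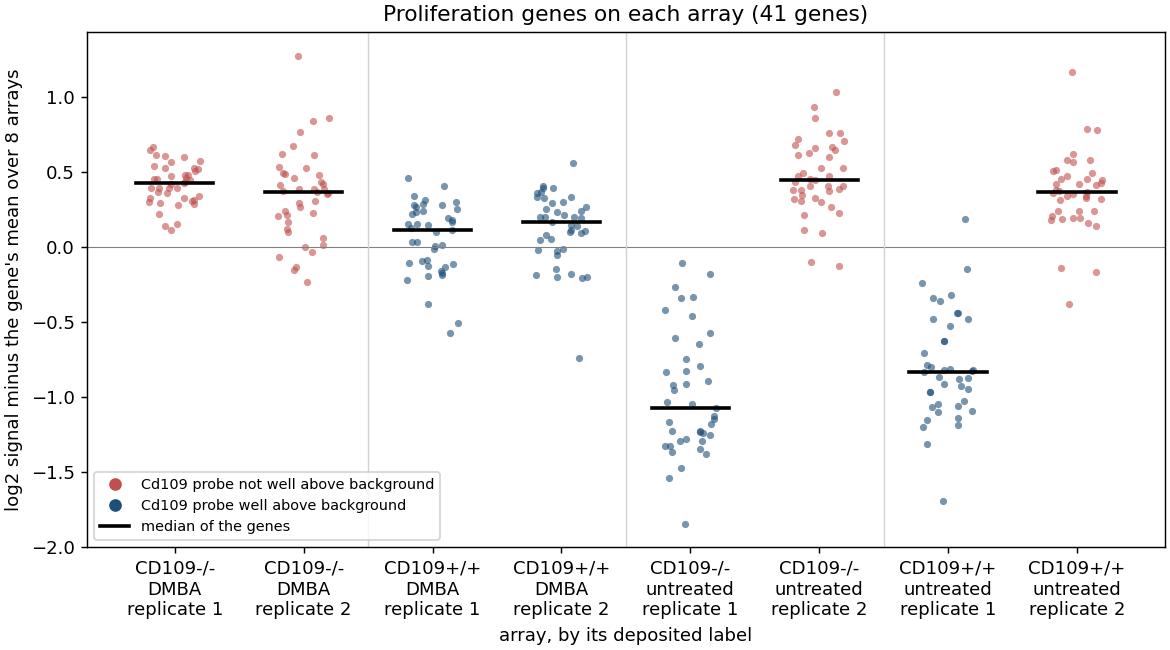
Log2 signal of 41 proliferation genes on each of the 8 arrays, each gene relative to its mean over the arrays, with 1 point per gene, a black bar at the median and colour for the Cd109 signal. The genes lie lowest on the arrays labelled untreated CD109-/- replicate 1 and untreated CD109+/+ replicate 1, where the Cd109 probe was well above background.

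The genes varied together across arrays. The correlation of a gene with the mean of the other members over the 8 arrays had a median of 0.96 and was above 0.9 for 33 of 41 genes, which share the same arrays and scaling. It was lowest for E2f1 (0.29) and Ttk (0.47). Outside the 42 genes, the 5 genes most like their mean, among 16728 genes compared, were Prc1, Cdca8, Kif20b, Ska3 and Tedc1, with Pearson's r between 0.99 and 1.00 over 8 arrays. Prc1 organises the spindle midzone and Cdca8 belongs to the chromosomal passenger complex. Prc1 had log2 signals of 2.34 and 2.17 in DMBA-treated CD109-/- skin, 1.94 and 2.01 in DMBA-treated CD109+/+ skin, 0.87 and 2.34 in skin labelled untreated CD109-/-, and 1.06 and 2.22 in skin labelled untreated CD109+/+.

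Between the genotypes after DMBA, where Cd109 follows the labels, 0 of the 41 genes passed by the deposited labels. Among all probes 0.0163% were higher and 0.0758% lower. With limma 0 genes reached an unadjusted p under 0.05, beside 15.4% of all probes higher, and with the methods' tests 17 did, all higher, beside 9.57%. The spread that limma used for a gene is shared by all 4 groups. Between replicates the mean of the genes had an SD of 0.05 in the DMBA groups, against 0.93 in the untreated groups as labelled. The count of 0 therefore does not show that these genes differed less than other probes. The median log2 difference, CD109-/- minus CD109+/+, was 0.23, against 0.07 over all tested probes, but it turned to -0.10 when arrays were centred on their medians, which moved the median of all probes to -0.26. The difference was positive in 32 genes and in 54.1% of all probes. Both CD109-/- arrays were above both CD109+/+ arrays in 28 genes and below in 1, Cenpa, which encodes the centromere histone, with 38.5% of all probes above and 32.8% below.

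Mki67, which encodes the proliferation marker Ki-67, had the largest difference. Its log2 signal was 4.21 and 4.50 in DMBA-treated CD109-/- skin, against 3.12 and 3.43 in DMBA-treated CD109+/+ skin, a difference of 1.07 (SE 0.67, adjusted p = 0.330). The groups did not overlap, and a second Mki67 probe differed by 1.39. Cenpf had -4.36 and -4.24 in CD109-/- skin, against -5.25 and -5.41 in CD109+/+ skin, a difference of 1.03 (SE 0.58, adjusted p = 0.297). Kif11, the kinesin that pushes spindle poles apart, had -0.94 and -0.73 in CD109-/- skin, against -1.88 and -1.70 in CD109+/+ skin, a difference of 0.96 (SE 0.78, adjusted p = 0.442). These 3 genes kept their sign under the other scalings of the arrays tried. Cdk2, the kinase of the G1/S transition, had -0.70 and -0.80 in CD109-/- skin, against -1.23 and -1.20 in CD109+/+ skin, a difference of 0.46 (SE 0.30, adjusted p = 0.350). With the mean of the hair shaft keratins as a covariate the differences turned below 0 for Mki67 (-0.26), Kif11 (-0.59) and Cdk2 (-0.014). That fit used the deposited labels. Its slope rests largely on the untreated groups, each holding a Cd109-low and a Cd109-high array. After DMBA the keratin means of the genotypes did not overlap, so the fit cannot separate genotype from keratin signal.

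By role, the transcription factors had a median difference of 0.46 after DMBA, with E2f1 at -0.24, Mybl2 at 0.95 and Foxm1 at 0.46. A second Foxm1 probe differed by -0.11. The kinesins, spindle, centromere and chromosome proteins had a median of 0.31. The mitotic kinases and phosphatase had 0.30, the cyclins and cyclin-dependent kinases 0.28 and the spindle checkpoint and anaphase genes 0.25. Nucleotide synthesis had 0.14 and the replication genes 0.12. The roles were not compared with median centring, which turned the median over all the genes negative. Ccnd1, cyclin D1 of G1 phase, had 3.04 and 3.22 in CD109-/- skin, against 2.80 and 2.90 in CD109+/+ skin. Cdc6, which loads MCM proteins onto origins, had -1.14 and -1.35 in CD109-/- skin, against -1.47 and -1.38 in CD109+/+ skin. Both were higher in all 4 array pairs by small amounts, 0.28 and 0.18, and both differences turned below 0 with median centring. E2f1, a transcription factor of G1/S genes, had a difference of -0.24, with 1.36 and 0.86 in CD109-/- skin, against 1.31 and 1.40 in CD109+/+ skin, and its groups overlapped.

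With the 2 untreated arrays exchanged, the same values of the DMBA arrays were set against a smaller spread between replicates, and 7 of 41 genes were higher in CD109-/- skin and 0 lower, beside 11.6% of all probes higher and 8.47% lower. They were Nek2 (0.73, SE 0.12, adjusted p = 0.0250), a kinase that splits centrosomes, Mki67 (1.07, SE 0.19, adjusted p = 0.0264), Kif11 (0.96, SE 0.19, adjusted p = 0.0303), cyclin A2 or Ccna2 (0.66, adjusted p = 0.0342), the mitotic phosphatase Cdc25c (0.61, adjusted p = 0.0349), the replication helicase subunit Mcm7 (0.53, adjusted p = 0.0377) and the kinetochore motor Cenpe (0.65, adjusted p = 0.0385). Nek2 had -0.73 and -0.60 in DMBA-treated CD109-/- skin, against -1.40 and -1.39 in DMBA-treated CD109+/+ skin. Without both arrays in doubt 0 passed, 12 being higher at an unadjusted p under 0.05 (limma), beside 18.9% of all probes. The count of 7 with the exchange was 0 without either CD109+/+ DMBA array or without CD109-/- DMBA replicate 2, and 3 without any one of the 4 untreated arrays. It was 1, Mki67, with median centring and 12 with normexp.

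**Figure D2:**
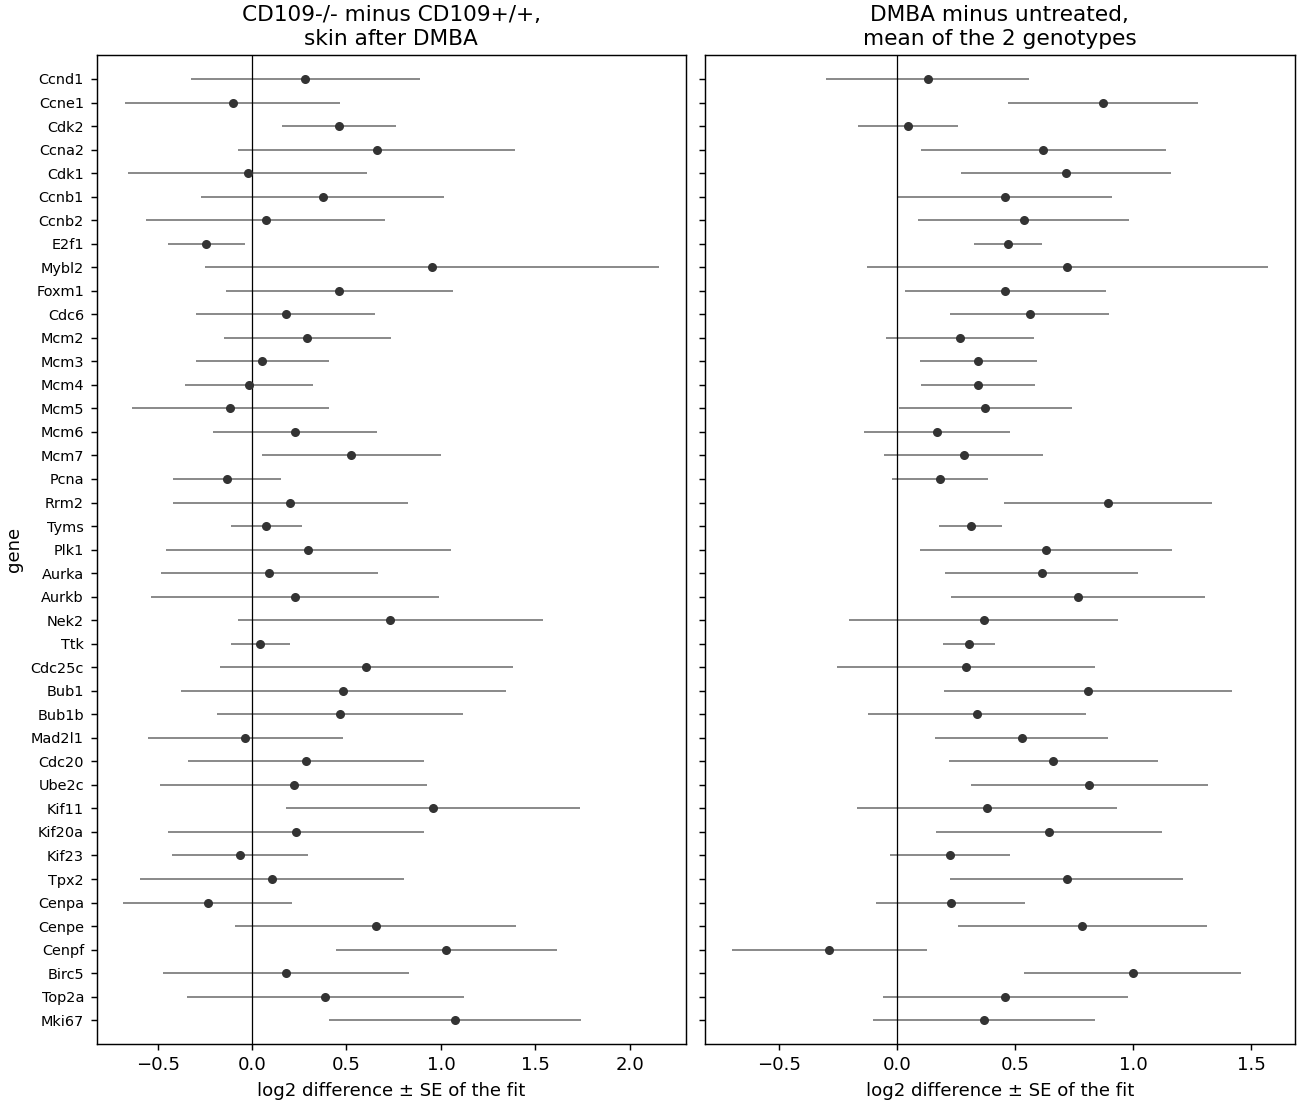
Log2 difference of each of 41 proliferation genes with the labels as deposited (points, with the SE of the limma fit as bars), CD109-/- minus CD109+/+ skin after DMBA on the left and DMBA minus untreated skin, averaged over genotypes, on the right. The points range from -0.24 to 1.07 on the left and from -0.29 to 1.00 on the right, and 0 genes passed in either comparison.

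In untreated skin, 0 of 41 genes passed between the genotypes as labelled, with 0% of all probes higher and 0.00542% lower. At an unadjusted p under 0.05, limma gave 0 genes, beside 0.845% of all probes higher, and the methods' tests gave 1, E2f1, which was higher, beside 0.788%. The median difference was -0.04, and 11 genes had a positive one, beside 45.7% of all probes. Within each label, the 2 replicates stood far apart. Bub1, a kinase of the spindle checkpoint, had -2.21 and 0.06 on the arrays labelled CD109-/- and -1.98 and -0.15 on those labelled CD109+/+. Plk1, the kinase that drives mitotic entry, had 1.09 and 3.12 on the arrays labelled CD109-/-, against 1.44 and 2.97 on those labelled CD109+/+. Ccnb2, cyclin B2, had 2.07 and 3.52 on the arrays labelled CD109-/-, against 1.96 and 3.48 on those labelled CD109+/+. In each gene both labels held 1 high and 1 low array.

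With the 2 arrays exchanged, 36 of 41 genes were higher in untreated CD109-/- than CD109+/+ skin and 0 lower, beside 4.95% of all probes higher and 3.95% lower. The median difference was 1.44, against -0.03 over all probes. Nek2 had the smallest p, with -0.43 and -0.45 on the Cd109-low arrays, against -2.27 and -2.44 on the Cd109-high arrays, a difference of 1.92 (SE 0.12, adjusted p = 0.00478). Bub1 differed by 2.05 (SE 0.14, adjusted p = 0.00524), Cdc25c by 1.84 (SE 0.13, adjusted p = 0.00536) and Ccna2 by 1.72 (SE 0.14, adjusted p = 0.00566). These genes separated the arrays by more than 1 log2 unit. Ccna2, for instance, had 2.25 and 2.40 on the Cd109-low arrays, against 0.73 and 0.48 on the Cd109-high arrays, and Cdc25c had -1.18 and -1.20 on the Cd109-low arrays, against -2.91 and -3.14 on the Cd109-high arrays. Tpx2, which activates the Aurora A kinase on the spindle, had 0.79 and 0.81 on the Cd109-low arrays, against -0.80 and -0.90 on the Cd109-high arrays (difference 1.65, adjusted p = 0.00517). Ube2c, the ubiquitin-conjugating enzyme of the anaphase-promoting complex, had 2.23 and 2.32 on the Cd109-low arrays, against 0.69 and 0.52 on the Cd109-high arrays (difference 1.67, adjusted p = 0.00542). The checkpoint kinase Bub1b had 0.19 and 0.37 on the Cd109-low arrays, against -1.15 and -1.35 on the Cd109-high arrays (difference 1.53, adjusted p = 0.00599). In none of these genes did the groups overlap, but most were named for their small p in this same comparison, so this is no separate support. The kinesin Kif20a differed by 1.60 (adjusted p = 0.00566), survivin or Birc5 by 1.53 (adjusted p = 0.00557) and Ccnb2 by 1.48 (adjusted p = 0.00566). Mybl2, a transcription factor of G2 genes, had the widest difference, 2.82, with 2.48 and 2.24 on the Cd109-low arrays, against -0.39 and -0.54 on the Cd109-high arrays. The 5 genes that did not pass were E2f1, Pcna, Tyms, Ttk and Cenpf. Ttk, the checkpoint kinase Mps1, had -3.13 and -3.09 on the Cd109-low arrays, against -3.11 and -3.14 on the Cd109-high arrays. E2f1 had 0.62 and 0.90 on the Cd109-low arrays, against 0.64 and 0.89 on the Cd109-high arrays, so neither gene separated them.

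By role, all 7 tested cyclins and cyclin-dependent kinases passed (median 1.48), as did 6 of 7 mitotic kinases and phosphatase (median 1.81), 4 of 4 genes of the spindle checkpoint and anaphase promotion (differences from 1.19 to 1.67) and 9 of 10 kinesins, spindle, centromere and chromosome proteins (median 1.56). Of the 8 replication genes 7 passed, with a median of 0.94. Mcm6, for instance, had 4.88 and 4.95 on the Cd109-low arrays, against 4.10 and 3.89 on the Cd109-high arrays. Of the nucleotide synthesis genes, Rrm2, a subunit of ribonucleotide reductase, passed with 3.92 and 3.99 on the Cd109-low arrays, against 2.71 and 2.31 on the Cd109-high arrays, while Tyms, thymidylate synthase, did not. Leaving out each array in turn gave between 11 and 37 genes, with 11 without the array labelled untreated CD109+/+ replicate 2, and 14 or 13 when the first or the second array labelled untreated CD109-/- was left out. Without both arrays in doubt, with 1 array left per untreated group, 0 passed, 34 were higher at an unadjusted p under 0.05 (limma), beside 5.64% of all probes, and the median was 1.29. The plot of both arrangements shows the shift of each gene.

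**Figure D3:**
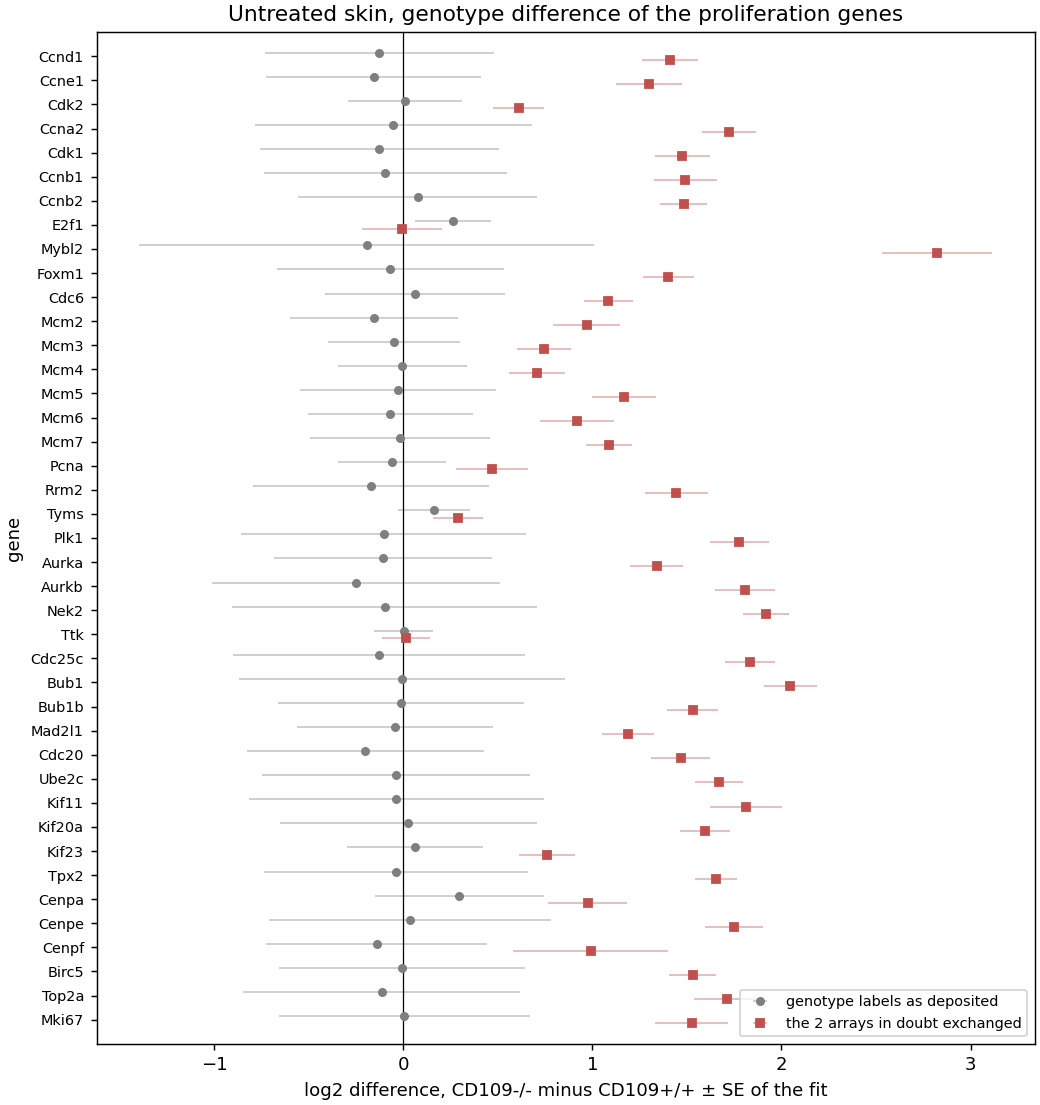
Log2 difference of 41 proliferation genes in untreated skin, CD109-/- minus CD109+/+, with the labels as deposited (grey circles) and with the 2 arrays in doubt exchanged (red squares), with bars for the SE of the limma fit. As labelled the genes lie around 0 with wide errors, and with the exchange 36 of 41 passed while E2f1 and Ttk stayed near 0.

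Averaged over the genotypes, 0 of 41 genes passed between DMBA-treated and untreated skin, with 0.0244% of all probes higher and 0.00542% lower at the adjusted threshold. At an unadjusted p under 0.05, limma gave 2 genes, E2f1 and Ttk, both higher, beside 7.83% of all probes, and the methods' tests gave 3, E2f1, Ttk and Tyms, beside 8.06%. The median difference was 0.46, against 0.04 over all probes, and 40 of 41 genes had a positive difference, as had 56.1% of all probes. All 4 DMBA arrays lay above all 4 untreated arrays in 3 genes, Ccne1, Ttk and Birc5, beside 3.82% of all probes, and below them in 0, beside 2.41%. Birc5 had 4.71 and 4.60 in DMBA-treated CD109-/- skin and 4.53 and 4.43 in DMBA-treated CD109+/+ skin, against 2.74 and 4.39 in skin labelled untreated CD109-/- and 2.86 and 4.28 in skin labelled untreated CD109+/+. The difference was 1.00 (SE 0.46, adjusted p = 0.486). Ccne1, cyclin E1 of the G1/S transition, had 1.82 and 1.66 in CD109-/- and 1.76 and 1.92 in CD109+/+ skin after DMBA, against 0.06 and 1.62 in skin labelled untreated CD109-/- and 0.47 and 1.52 in skin labelled untreated CD109+/+, a difference of 0.87 (SE 0.40, adjusted p = 0.487). In both genes the lowest DMBA array exceeded the highest untreated array by little.

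The smallest p belonged to genes that varied little over the arrays. E2f1 had 1.36 and 0.86 in CD109-/- skin and 1.31 and 1.40 in CD109+/+ skin after DMBA, against 0.89 and 0.90 in skin labelled untreated CD109-/- and 0.64 and 0.62 in skin labelled untreated CD109+/+, a difference of 0.47 (SE 0.14, adjusted p = 0.326). Ttk had -2.68 and -2.90 in CD109-/- and -2.80 and -2.87 in CD109+/+ skin after DMBA, against values between -3.14 and -3.09 on the 4 untreated arrays, a difference of 0.30 (SE 0.11, adjusted p = 0.388). All 4 DMBA arrays were thus the higher ones, by little. Tyms differed by 0.31 (SE 0.13, adjusted p = 0.458). Rrm2 differed by 0.89 (SE 0.44, adjusted p = 0.515) and Mki67 by 0.37 (SE 0.47, adjusted p = 0.805).

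Within each genotype as labelled, 0 of 41 genes passed. DMBA minus untreated had a median of 0.35 in CD109+/+ skin, where 34 genes were positive beside 49.3% of all probes, and of 0.69 in CD109-/- skin, where 40 genes were positive beside 57.8%. At the adjusted threshold CD109+/+ skin had 0.146% of all probes higher and 0.0379% lower, and CD109-/- skin 0% either way. At an unadjusted p under 0.05 limma gave 1 gene in CD109+/+ skin, E2f1 (0.72, SE 0.20, adjusted p = 0.295), beside 6.6% of all probes higher, and 0 in CD109-/- skin, beside 10.3%. The methods' tests gave 2 higher in CD109+/+ skin, E2f1 and Ttk, beside 6.66%, and 1 lower, Cenpf, beside 4.52%, and 0 in CD109-/- skin, beside 3.86% of all probes higher and 1.77% lower. With the exchange, 25 of 41 genes were higher after DMBA in CD109+/+ skin and 0 lower (median 1.01, beside 2.37% of all probes higher and 1.14% lower), and 0 passed in CD109-/- skin (median -0.03), beside 0.00538% of all probes higher and 0.00808% lower. In CD109-/- skin limma gave Ttk and Birc5 as higher at an unadjusted p under 0.05, beside 12.7% of all probes, and Ccnd1 as lower, beside 4.82%. In CD109+/+ skin Birc5 was 1.68 higher (adjusted p = 0.0103), Tpx2 1.49 (adjusted p = 0.0103), Ube2c 1.54 (adjusted p = 0.0124) and Bub1 1.59 (adjusted p = 0.0136). The count of 25 became 0 without either CD109+/+ DMBA array or without the array labelled untreated CD109-/- replicate 1, and 4 or 9 without another untreated array. Averaged over genotypes, 10 genes were higher with the exchange and 0 lower, beside 1.06% and 0.439% of all probes. This count rested on single arrays, since leaving out CD109-/- DMBA replicate 1 gave 6, leaving out its replicate 2 gave 2, and it was 0 without any one of the other 6 arrays, and it was 3 with median centring and 16 with normexp.

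The difference between the genotypes in their response to DMBA passed for 0 of 41 genes as labelled, beside 0% of all probes. The median was 0.37, 33 genes were positive beside 55.9% of all probes, and 0 reached an unadjusted p under 0.05 with limma, beside 9.04% of all probes higher, or with the methods' tests, beside 6.65% of all probes higher and 5.94% lower. With the exchange 0 passed, beside 0.0108% of all probes higher and 0.0162% lower, the median was -1.13 and 34 were lower at an unadjusted p under 0.05, beside 8.53% of all probes (limma). The smallest adjusted p was 0.0585, for Tpx2 at -1.55 (SE 0.16), and Tpx2 passed with the exchange under median centring or quantile normalization. With the exchange and normexp background correction 12 genes passed, all lower (median -0.94), and without any single array 0 passed. These comparisons share arrays.

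Cell cycle genes outside the 42 were also called in untreated skin. With the exchange, 24 of 31 further genes of G1/S and licensing and 38 of 44 further genes of G2/M and mitosis were higher in untreated CD109-/- than CD109+/+ skin, with medians of 0.95 and 1.31, and 0 were lower, beside 4.95% of all probes higher and 3.95% lower. After DMBA with the exchange, 6 of the G1/S genes were higher and 2, Cdk6 and Ccnd3, lower (median 0.11), and 7 of the G2/M genes were higher and 0 lower (median 0.23), beside 11.6% of all probes higher and 8.47% lower. Those higher in untreated skin with the exchange included the thymidine kinase Tk1 (1.54, adjusted p = 0.00542) and Cdca5, the cohesin regulator sororin (1.70, adjusted p = 0.00547). By the deposited labels 0 of either list passed in any comparison (limma). After DMBA, Cep55, which acts in the final cut between daughter cells, had a difference of 0.81 as labelled (SE 0.19, adjusted p = 0.108), and Cdk6, a kinase of G1 phase, one of -1.61 (SE 0.40, adjusted p = 0.111). Of 20 cell cycle inhibitors and arrest genes, 0 passed as labelled, and with the exchange 4 were higher in CD109-/- skin after DMBA, namely Cdkn2a (1.29, adjusted p = 0.0257), Cdkn2b (1.24, adjusted p = 0.0349), Cdkn1b (0.65, adjusted p = 0.0314) and Pkmyt1 (0.71, adjusted p = 0.0303), beside the 11.6% of all probes that were higher there. The first 3 inhibit cyclin-dependent kinases and Pkmyt1 phosphorylates Cdk1. In untreated skin with the exchange, 3 of the 20 were higher, Cdkn2a (1.13, adjusted p = 0.0384), Pkmyt1 (0.99, adjusted p = 0.0181) and Rbl1 (0.66, adjusted p = 0.0369), and 1 lower, Wee1 (-1.10, adjusted p = 0.0242), beside 4.95% of all probes higher and 3.95% lower. After DMBA the median over all 20 was 0.24, beside 0.23 for the proliferation genes.

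Hair follicle markers followed the Cd109 signal across all 8 arrays. Over 12 tested hair shaft keratins the log2 signal averaged 1.18 and 5.87 in DMBA-treated CD109-/- skin, -4.27 and -4.27 in DMBA-treated CD109+/+ skin, -4.22 and 3.04 in skin labelled untreated CD109-/-, and -3.94 and 4.56 in skin labelled untreated CD109+/+. All 12 were well above background on every array with a low Cd109 signal, and 3 of them on no array with a high one. Of 14 listed, 12 were tested, which required a probe well above background on both arrays of a group. The 3 could meet this only through DMBA-treated CD109-/- skin, so their detection there was fixed by the filter. Inner root sheath genes ranged from 4.23 to 6.59 on the Cd109-low arrays, and from -3.63 to -2.83 on the others. Genes of the hair matrix and dermal papilla ranged from 0.56 to 1.65 on the Cd109-low arrays, against -2.90 to -2.31 on the others. In each of these lists 2 genes, of 8 and of 10 tested, were well above background on no Cd109-high array. The same limit of the filter holds for them. Among the Cd109-high arrays the proliferation genes and these markers differed, since the mean of the proliferation genes was 1.14 and 1.22 after DMBA and 0.11 and 0.29 in untreated skin while the hair shaft keratins lay between -4.27 and -3.94. With a hair shaft keratin mean as a covariate, the median difference between the genotypes after DMBA was -0.89, and 0 genes passed. This mean was taken over all listed keratins named on the array, tested or not. The slope of this fit, made with the deposited labels, rests largely on the untreated groups, which mix Cd109-low and Cd109-high arrays. Because the keratin means of the genotypes did not overlap after DMBA, the fit cannot separate genotype from keratin signal. Neutrophil genes, of which Mmp8 (4.30, adjusted p = 0.0285) and Cxcr2 (3.80, adjusted p = 0.0493) were higher after DMBA in CD109+/+ skin as labelled, had means of 1.48 and 0.50 in CD109-/- and 2.88 and 2.28 in CD109+/+ skin after DMBA, against -1.16 and -0.03 in skin labelled untreated CD109-/- and -1.52 and 0.39 in skin labelled untreated CD109+/+. Genes of 4 other cell types split the arrays in the opposite direction to the proliferation genes. Basal epidermis genes averaged 4.82 to 4.95 on the Cd109-low arrays, against 5.22 to 5.57 on the Cd109-high arrays, and with the exchange 3 of 7 were lower in CD109-/- skin after DMBA, namely Krt14 (-1.42, adjusted p = 0.0240), Itgb4 (-0.84, adjusted p = 0.0272) and Itga6 (-0.59, adjusted p = 0.0465). Macrophage genes averaged 2.27 to 3.15 on the Cd109-low arrays, against 3.47 to 4.02 on the Cd109-high arrays. Skeletal muscle genes averaged 3.33 to 4.71 on the Cd109-low arrays, against 5.36 to 6.23 on the Cd109-high arrays. Adipocyte genes averaged 1.85 to 2.78 on the Cd109-low arrays, against 3.42 to 4.25 on the Cd109-high arrays. In these 4 lists every tested gene was well above background on all 8 arrays, while fibroblast, T cell, erythroid, suprabasal and neutrophil genes overlapped between the Cd109-low and Cd109-high arrays. With the exchange, 5 of 6 macrophage genes, 4 of 5 adipocyte genes and 1 of 6 skeletal muscle genes were lower in CD109-/- skin after DMBA, beside the same 8.47% of all probes. The part of these other cells in the values of the proliferation genes was not tested further.

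**Figure D4:**
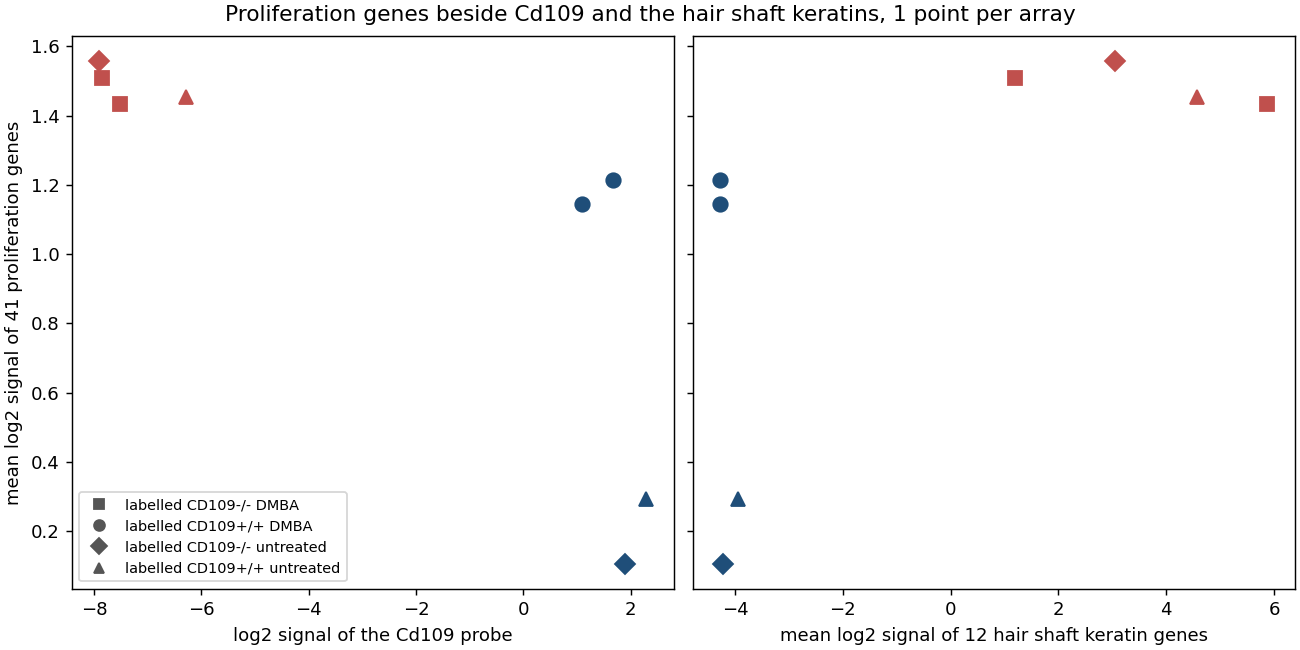
Mean log2 signal of 41 proliferation genes on each array against the log2 signal of Cd109 (left) and against the same mean over 12 hair shaft keratin genes (right), 1 point per array, with shapes for the deposited labels and red for arrays whose Cd109 probe was not well above background. The 4 red arrays lie between 1.43 and 1.56, the 2 DMBA-treated CD109+/+ arrays at 1.14 and 1.22, and the other 2 at 0.11 and 0.29.

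Other probes of the same genes mostly gave the same pattern. Of the 41 genes, 11 had more than 1 tested probe, and in all 15 of the other probes the untreated CD109-/- arrays were higher with the exchange. The dimmest Cdk1 probe was the least like the brightest one (r = 0.58 over 8 arrays), and after DMBA the Cdk1 probes differed between the genotypes by 1.06, -0.02 and -0.02. Probes of Birc5, Ccnb1, Cdk1, Foxm1 and Mad2l1 disagreed in the sign of that difference, so its direction is uncertain for these 5 genes.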

How the data were processed

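RNA of whole skin was hybridized to 8 one-colour Agilent arrays on 1 slide. Per the authors' files the scans were quantified by Agilent Feature Extraction (11.5.1.1), and the deposited intensity of each spot is linear, background-subtracted and not normalized between arrays. In the value table that was also deposited, each array's intensity is multiplied by 1 constant. The share of probes well above background ranged over the arrays between 62.4% and 66.0%, no probe counted as saturated, and the number of arrays limits the precision.

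Control spots and spots with an outlier flag were left out, and the rest were averaged per probe. Of 55681 probes, 223 without a spot left on some array were dropped and 55458 kept. Each array was scaled to its 75th percentile and put on the log2 scale. Accessions named 28026 of 29796 RefSeq probes (94.1%). A probe entered the test if 1 group or more had it well above background on both of its arrays. Tests were run in R 4.3.3 with limma 3.58.1 (lmFit and eBayes, 1 mean per group, all 8 arrays), with Benjamini-Hochberg adjustment over 36921 probes, or 37147 with the 2 arrays exchanged. The scripts were tested on simulated data with the spread found under the deposited labels. For the genotypes after DMBA, 0 of 50 probes changed by 1 log2 unit passed. Of 50 changed by 2 units 15 passed, and of 50 changed by 5 units 41. A count of 0 as labelled is therefore no sign that differences of about 1 unit are absent. Tables and plots used Python 3.11.15, pandas 2.3.3 and matplotlib 3.10.9.

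The 42 genes and all gene lists were chosen with earlier results of these data known. Genes were named by a rule: the 3 of smallest p and the 3 of largest difference between the genotypes after DMBA and for the mean DMBA effect, Mki67, Cd109, the first gene of each role, up to 10 that passed, genes of other lists that passed or had the smallest p, and the 5 most alike. Other genes are named where a count of 5 or fewer, a probe or a role called for it, after their values were seen. Other lists, over the 6 comparisons as labelled, were suprabasal and activated epidermis (1 gene, Krt16, higher after DMBA in CD109+/+ skin), neutrophils (2 higher there), basal epidermis, the 3 hair follicle lists, fibroblasts, macrophages, T cells, skeletal muscle, adipocytes and erythroid cells (0 passed in each as labelled). The alternatives were quantile normalization, median centring, normexp background with an offset of 50, no filter, a filter on all arrays, only the arrays compared, a replicate block, limma with trend and robust variance, the methods' tests, the deposited value table, the mean of a gene's probes, a hair keratin covariate, leaving out each array, and leaving out or exchanging the 2 arrays in doubt. The exchange combined with other scalings or with left-out arrays was chosen after seeing the data. Protein sequences were not analysed here.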

Additional observations from a re-analysis of the deposited data

How the results depend on the processing

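By the deposited labels 0 proliferation genes passed in every comparison and under each alternative except the exchange and the methods' tests without adjustment. With 2 arrays a group few probes of any kind passed, so a count of 0 says nothing about stability. The exchange gave 7 after DMBA and 36 in untreated skin between the genotypes, 25 for DMBA in CD109+/+ skin, 0 for DMBA in CD109-/- skin, 10 for the mean DMBA effect and 0 for the difference of the effects. The methods' tests at an unadjusted p gave 17, 1, 3, 0, 3 and 0, beside 9.57% of all probes higher between the genotypes after DMBA, and 0 after Benjamini-Hochberg adjustment.

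The median difference between the genotypes after DMBA, 0.23 as reported, was 0.35 with quantile normalization, 0.34 with normexp background, -0.10 with median centring and -0.89 with the hair keratin covariate. That in untreated skin was 1.29 without both arrays in doubt and 1.44 with the exchange. For DMBA in CD109+/+ skin these were 0.95 and 1.01, and 0.93 with the covariate. For DMBA in CD109-/- skin the median was -0.068 without both arrays. For the difference of the effects it was -1.05, -1.13 and -0.935. Leaving out single arrays as labelled gave medians of 0.19 to 0.28 between the genotypes after DMBA, -0.87 to 0.68 in untreated skin, -0.23 to 0.95 and -0.068 to 1.51 for DMBA in CD109+/+ and CD109-/- skin, 0.14 to 0.85 for their mean and -0.41 to 1.04 for the difference of the effects, with 0 genes passing.

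With the exchange, leaving out single arrays gave 0 to 8 genes after DMBA (medians 0.19 to 0.28), 11 to 37 in untreated skin (1.28 to 1.56; 14 and 13 without either array labelled untreated CD109-/-), 0 to 26 (4 or 9 without single untreated arrays) and 0 for DMBA in CD109+/+ and CD109-/- skin (0.95 to 1.05 and -0.08 to 0.02), 0 to 6 for their mean (0.38 to 0.51) and 0 for the difference of the effects (-1.27 to -0.99). With the exchange and median centring, 1 gene, Mki67, passed after DMBA (median -0.10), 3 (Ube2c, Cenpe and Birc5) for the mean effect and 1, Tpx2, for the difference of the effects (median -1.45), and the median was 1.14 and -0.23 for DMBA in CD109+/+ and CD109-/- skin. With the exchange and normexp, 12 passed after DMBA (median 0.34), 16 for the mean effect (0.37) and 12 for the difference (-0.94), with medians of 1.26 in untreated skin and 0.77 for DMBA in CD109+/+ skin. With the exchange and quantile normalization, 1 passed for the difference, and the median after DMBA was 0.35. The cause of these shifts was not tested.

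Of the named genes, some turned direction between the genotypes after DMBA. With median centring Ccnd1 was at -0.046, Cdc6 at -0.15, Rrm2 at -0.13 and Plk1 at -0.031. With the hair keratin covariate Mki67 was at -0.26, Cdk2 at -0.014, Kif11 at -0.59, Ccnd1 at -0.93, Cdc6 at -0.67, Rrm2 at -0.96, Plk1 at -1.18 and Bub1b at -0.81. The covariate fit used the deposited labels and has the limits given with the hair follicle markers. Without single arrays E2f1 ranged from -0.49 to 0.0060, the highest value without CD109-/- DMBA replicate 2. The mean DMBA effect on Mki67 ranged from -0.076, leaving out replicate 1 labelled untreated CD109-/-, to 0.81.

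The labels give each group replicates 1 and 2 but do not say that a number pairs samples, and the deviations of same-numbered arrays correlated between -0.08 and 0.73. The value of 0.73 was that of the untreated groups, where replicate 1 was Cd109-high and replicate 2 Cd109-low under both labels. A pairing cannot be told apart from that split. With the replicate number as a block, 0 proliferation genes passed in each comparison as labelled, with the smallest adjusted p at 0.153.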
